A study of Homo sapiens with 9 samples.

Results

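The plasminogen activator system was followed through 5 of its genes in HaCaT cells, an established line of immortalized human keratinocytes: the proteases PLAU and PLAT, the receptor PLAUR and the inhibitors SERPINE2 and SERPINB2. They were taken by gene symbol from the 58336 genes of the count and FPKM tables, and all 5 were found once and passed the filter on low counts. RNA was sequenced from control cells labelled as untreated and from cells given low-dose ALA-PDT, with 0.5 mmol/L ALA and 3 J/cm2 of light at 635 ± 5 nm. One treated group was collected 12 h and the other 48 h after light, and each of the 3 groups has 3 samples. The labels give no collection time for the control, so in each contrast treatment and time in culture cannot be told apart. In ALA-PDT, cells turn 5-aminolevulinic acid into protoporphyrin IX, a pigment that makes reactive oxygen species under red light. The tables name their columns Nc1 to Nc3, A1 to A3 and B1 to B3. Nc was read as the control, which the labels do not spell out, so A and B are the treated groups. Nothing in the sources used here ties A or B to a time, and both are called by their letter. No source says that the 3 samples of a group were separate cultures, so p-values measure the spread between these samples, which may be technical.

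Plasminogen is an inactive protein that PLAU (urokinase, uPA) and PLAT (tissue plasminogen activator, tPA) cut to make plasmin, a protease that dissolves fibrin and digests parts of the matrix. PLAUR (uPAR) is a membrane-anchored receptor that holds urokinase at the cell surface. SERPINE2 (protease nexin-1) inhibits urokinase, tissue plasminogen activator, plasmin and thrombin, and SERPINB2 (PAI-2) inhibits both activators. In skin, urokinase and its receptor are known for their part in keratinocyte migration over a wound.

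The libraries held between 15337296 and 18028419 counts over genes. The summed counts of the hemoglobin genes HBB, HBA1 and HBA2, which keratinocyte cultures should lack, were 7336, 7457 and 3 in Nc1 to Nc3, 597, 1244 and 7 in A1 to A3, and 4, 8 and 8381 in B1 to B3. A list of 9 leukocyte markers summed to 364, 318 and 25 counts in Nc1 to Nc3, 98, 93 and 49 in A1 to A3, and 66, 100 and 407 in B1 to B3. Nc1, Nc2 and B3 were thus the highest in both. The fibroblast markers COL3A1, DCN and LUM had counts in A1 and A2 and 0 in the other 7 libraries. Of 8 keratinocyte markers, 7 had at least 1129 counts in every library, while KRT14, a keratin of basal keratinocytes, had 2 to 20. Summed counts of these 8 markers were 52861 to 60783 in Nc, 68151 to 77457 in A and 52609 to 58736 in B. The 6 melanocyte markers summed to 143 to 208 counts in Nc, 109 to 160 in A and 124 to 151 in B. Of these, MITF had 81 to 194 counts per library and was lower in B than in Nc (log2 fold change -0.66), PMEL had 11 to 43 and was higher (1.18), and TYR was at 0 throughout. In bulk samples like these, fewer cells of a type and less RNA per cell cannot be told apart.

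The 2 treated groups had different patterns in 4 of the 5 genes. In A, PLAU and its receptor PLAUR were higher than in the control and PLAT was lower. In B, PLAT and SERPINE2 were higher than in the control and SERPINB2 was lower, while PLAU and PLAUR overlapped the control and were not called. SERPINE2 rose nearly as much in A (log2 fold change 0.57, against 0.61 in B) but was not called there. Its difference between B and A, 0.05, was not called either. A gene was called when edgeR's quasi-likelihood test gave a Benjamini-Hochberg adjusted p under 0.05 over the 13845 genes tested. For A against Nc, 3 of the 5 genes were called, 2 higher and 1 lower, where 2.72% of all tested genes were called, 1.76% higher and 0.953% lower. For B against Nc, 3 were also called, 2 higher and 1 lower, against a background of 13.4%, of which 6.12% higher and 7.24% lower. For B against A, 4 were called, 1 higher and 3 lower, against 18% of all genes, 8.79% higher and 9.25% lower. Each pair of these contrasts shares a group of libraries, so the 3 sets of values are not independent of each other. The 5 genes were chosen with earlier results of these data known, so the background shares are no test of these counts.

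The background itself moves with the fit. The 376 genes called for A against Nc became 244 with the replicate number as a block in the fit of all 9 libraries. An alternative chosen after seeing the data put that block in a fit of the A and Nc libraries alone. It called 4601 of 13216 tested genes, among them PLAU, PLAUR, PLAT and SERPINE2, so their calls there stand against a far larger share. Scaling by library totals moved the share of calls that were higher from 45.8% to 60.4% in B against Nc and from 48.7% to 62.8% in B against A. Leaving out the libraries with at least 100 globin counts keeps Nc3, A3, B1 and B2, so that the spread comes from B alone and the lone Nc and A libraries are assumed to vary like B. That fit called 30, 57 and 460 genes in A against Nc, B against Nc and B against A.

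**Figure D1:**
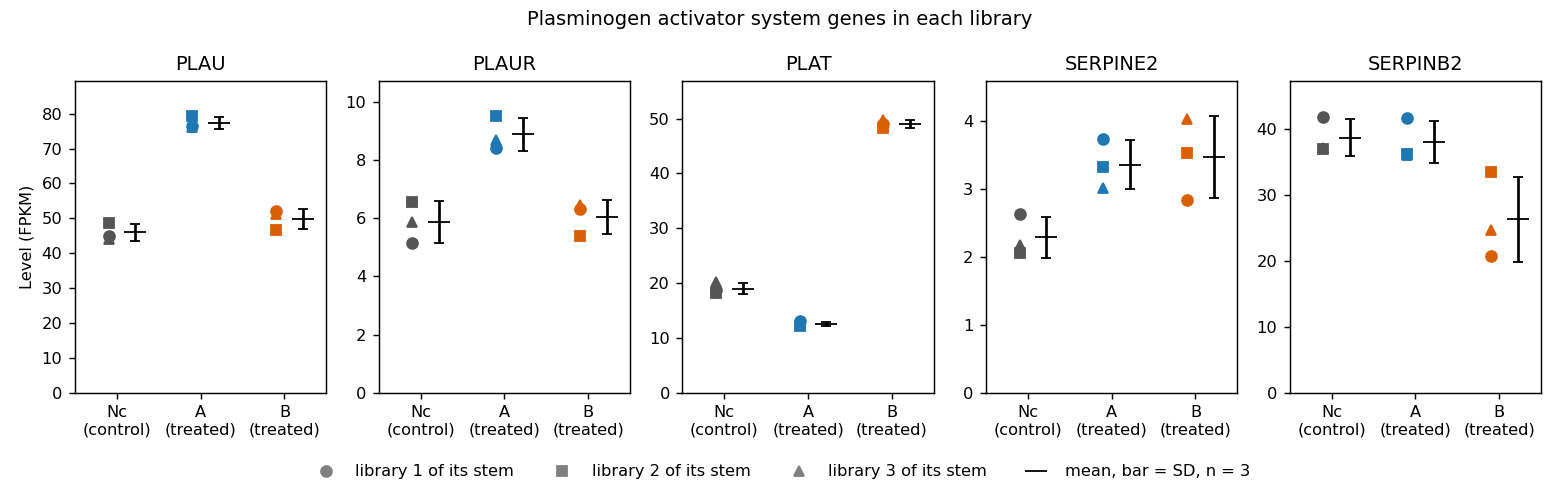
Level of each gene in FPKM (y axis, linear from 0, with its own scale in each panel) in the 3 control (Nc) and 6 treated (A, B) libraries; points are libraries, and black marks are the mean with its SD (n = 3). PLAU and PLAUR are high in A alone, PLAT is lowest in A (12.6 FPKM) and highest in B (49.0 FPKM), SERPINE2 is above the control in both, and SERPINB2 is low and spread out in B.

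PLAU lies at chr10:73909177-73917497 on the plus strand (GRCh38). Its level was 45.1, 48.8 and 44.0 FPKM (fragments per kilobase of gene length, scaled for depth by the authors) in Nc1 to Nc3. It was 76.5, 79.4 and 76.1 FPKM in A1 to A3 and 52.0, 46.6 and 51.1 FPKM in B1 to B3. All A libraries were above all others, and the B libraries overlapped the control. Means were 46.0 ± 2.53, 77.4 ± 1.81 and 49.9 ± 2.89 FPKM (SD, n = 3) in Nc, A and B. PLAU was 1.70-fold higher in A than in Nc, a log2 fold change of 0.77 (SE 0.11, adjusted p = 0.0019). In B it was lower than in A by 0.64 on the log2 scale (SE 0.11, adjusted p = 0.0014), while the difference of 0.13 (SE 0.11) between B and Nc was not called (adjusted p = 0.477). With any 1 of the 9 libraries left out, A against Nc ran from 0.73 to 0.80 and stayed called, with adjusted p from 0.0029 to 0.027. Without the globin libraries the difference was 0.80, as large as with them, but not called. C10orf55, a gene that overlaps PLAU on the opposite strand, had 8 to 18 counts per library against 2177 to 3874 for PLAU.

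PLAT lies at chr8:42175233-42207724 on the minus strand. Its level was 18.7, 18.1 and 20.1 FPKM in Nc1 to Nc3, 13.0, 12.3 and 12.5 FPKM in A1 to A3, and 49.0, 48.3 and 49.8 FPKM in B1 to B3. The 3 groups did not overlap, with A lowest and B highest. Group means were 19.0 ± 1.02, 12.6 ± 0.396 and 49.0 ± 0.745 FPKM (SD, n = 3). The coefficient of variation within B was 1.52%, near the 1.32% that counting alone would give. PLAT was 2.60-fold higher in B than in Nc, a log2 fold change of 1.38 (SE 0.11, adjusted p = 8.71e-06). In A it fell by 0.58 against Nc (SE 0.11, adjusted p = 0.0102), and B was 3.88-fold higher than A (log2 fold change 1.96, SE 0.11, adjusted p = 4.08e-08). The size of the B-to-Nc difference put PLAT above 98.5% of tested genes by absolute log2 fold change.

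The 2 PLAT contrasts with the control differ in how much they rest on single libraries. B against Nc ran from 1.36 to 1.42 and stayed called with any 1 library left out. A against Nc was no longer called without Nc3 (log2 fold change -0.53, adjusted p = 0.079), without A2 (-0.56, adjusted p = 0.0801) or without A3 (-0.57, adjusted p = 0.0723); over all its alternatives adjusted p ran from 1.82e-06 to 1. Without the globin libraries, B against Nc was 1.29 (adjusted p = 0.0531), A against Nc was -0.67 (not called) and B against A was 1.96 and still called (adjusted p = 2.33e-05).

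Endothelial cells are a known source of tissue plasminogen activator, and a list of 6 endothelial markers moved with PLAT. The list summed to 48 to 73 counts per library in Nc, 27 to 52 in A and 197 to 246 in B. One gene, CDH5 (VE-cadherin), made up 185 to 230 of the counts in B. Of the other 5 markers there, VWF had 1 to 3 counts, KDR 3 to 4, and TEK and CLDN5 0 to 3, with PECAM1 at 6 to 22. The part of these markers in the PLAT result was not tested.

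PLAUR lies at chr19:43646095-43670547 on the minus strand. Its level was 5.14, 6.58 and 5.88 FPKM in Nc1 to Nc3, 8.42, 9.53 and 8.71 FPKM in A1 to A3, and 6.30, 5.38 and 6.45 FPKM in B1 to B3. The A libraries stood above all the others, and B lay inside the control's range. Means were 5.87 ± 0.717, 8.88 ± 0.573 and 6.04 ± 0.581 FPKM (SD, n = 3). PLAUR was 1.53-fold higher in A than in Nc (log2 fold change 0.61, SE 0.13, adjusted p = 0.018). In B it was lower than in A by 0.56 on the log2 scale (SE 0.13, adjusted p = 0.0080), and the 0.05 (SE 0.13) between B and Nc was not called (adjusted p = 0.830).

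The call of PLAUR in A rests on few libraries. It was lost without Nc1 (log2 fold change 0.52, adjusted p = 0.0583), Nc3 (0.61, adjusted p = 0.0886), A2 (0.55, adjusted p = 0.129) or A3 (0.63, adjusted p = 0.0727), while the difference stayed between 0.52 and 0.69. Over all alternatives its adjusted p ran from 1.21e-04 to 1, the last without the globin libraries, where the difference was 0.58. B against A was lost without B2 (log2 fold change -0.46, adjusted p = 0.0566), within a range of 0.0018 to 0.259 over its alternatives.

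The keratinocyte markers rose in part with PLAU and PLAUR. For A against Nc, 3 of the 8 were called higher: ITGB4, a hemidesmosome integrin, by 0.75, SFN (14-3-3 sigma) by 0.73 and COL17A1, a hemidesmosome collagen, by 0.50 on the log2 scale. The other 5 were not called. For B against Nc, KRT5 (-0.48), KRT14 (-2.21) and DSC3 (-0.51) were called lower, as SERPINB2 was. For B against A, 6 of the 8 were called lower, as PLAU, PLAUR and SERPINB2 were. Over all tested genes, 1.76% were called higher in A against Nc, 7.24% lower in B against Nc and 9.25% lower in B against A. The part of the keratinocyte markers in the results was not tested.

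SERPINE2 lies at chr2:223975112-224039319 on the minus strand. Its level was 2.63, 2.06 and 2.18 FPKM in Nc1 to Nc3, 3.73, 3.32 and 3.01 FPKM in A1 to A3, and 2.84, 3.53 and 4.03 FPKM in B1 to B3. Every treated library was above every control library, and A and B overlapped each other. Group means were 2.29 ± 0.301, 3.35 ± 0.362 and 3.47 ± 0.597 FPKM (SD, n = 3). SERPINE2 was 1.53-fold higher in B than in Nc (log2 fold change 0.61, SE 0.15, adjusted p = 0.0148). The 0.57 (SE 0.15) between A and Nc missed the threshold (adjusted p = 0.0539), and B and A differed by 0.05 (SE 0.15, adjusted p = 0.857).

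Both SERPINE2 contrasts with the control lie near the threshold. A against Nc was called with the replicate block in the A and Nc libraries alone (log2 fold change 0.54, adjusted p = 2.89e-04), with DESeq2 (adjusted p = 0.0225), without a filter on low counts (adjusted p = 0.0398) and without Nc1 (0.67, adjusted p = 0.0328), and its highest adjusted p was 1. B against Nc was lost without Nc3 (0.57, adjusted p = 0.0643) or B3 (0.50, adjusted p = 0.0987), within 0.0039 to 0.659 over its alternatives. Without the globin libraries the differences were 0.48 and 0.57, neither called. Among the A libraries, COL3A1, DCN and LUM had counts in A1 and A2, where SERPINE2 was highest, and 0 in A3, where it was lowest. They also had 0 in B3, where SERPINE2 was highest of all libraries (4.03 FPKM). The whole fibroblast list summed to 117 counts in A1 and 193 in A2, while SERPINE2 was higher in A1 than in A2. Over 8 fibroblast markers the summed counts were 48 to 70 in Nc, 27 to 193 in A and 40 to 64 in B, and their part in the SERPINE2 result was not tested.

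SERPINB2 lies at chr18:63871692-63903890 on the plus strand. Its level was 41.9, 37.1 and 37.1 FPKM in Nc1 to Nc3, 41.7, 36.3 and 36.1 FPKM in A1 to A3, and 20.8, 33.4 and 24.8 FPKM in B1 to B3. The A libraries overlapped the control, and all B libraries were below both. Means were 38.7 ± 2.79, 38.1 ± 3.18 and 26.3 ± 6.48 FPKM (SD, n = 3), and the coefficient of variation in B, 24.6%, was the highest of any of the 5 genes in any group. SERPINB2 was lower in B than in Nc by 0.54 on the log2 scale (SE 0.15, adjusted p = 0.0304) and lower than in A by 0.53 (SE 0.15, adjusted p = 0.0258). Between A and Nc the difference was -0.01 (SE 0.15, adjusted p = 0.980). SERPINB10, which overlaps it on the same strand, had 0 to 3 counts per library.

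The calls of SERPINB2 were lost under more alternatives than those of the other 4 genes. B against Nc was lost with scaling by library totals (log2 fold change -0.50, adjusted p = 0.0842) and without Nc1 (-0.49, adjusted p = 0.0713), Nc2 (-0.55, adjusted p = 0.0559), Nc3 (-0.58, adjusted p = 0.0650), B1 (-0.38, adjusted p = 0.115) or B3 (-0.49, adjusted p = 0.144), within a range of 7.84e-04 to 0.890. B against A was likewise lost without A1, A2, A3, B1 or B3, where the difference ran no further than from -0.72 to -0.35 over all libraries left out. Without the globin libraries the 2 differences were -0.43 and -0.41, neither called.

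**Figure D2:**
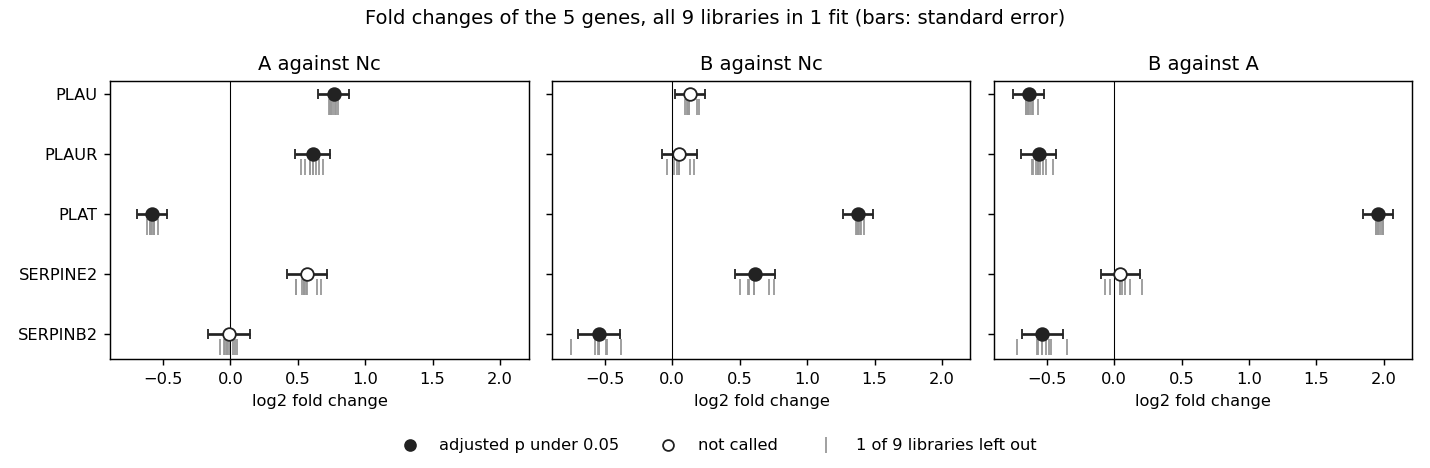
Log2 fold change (x axis) of the 5 genes in the 3 contrasts, from 1 fit of all 9 libraries; circles with bars are the estimate and its standard error, filled where called, and grey ticks are the estimates with 1 library left out. PLAT moves in opposite directions in A (-0.58) and B (1.38), PLAU and PLAUR are apart from 0 in A and not in B, and the ticks of SERPINB2 spread the most in the 2 contrasts with B.

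The order of the levels changed in B. By FPKM, every Nc and A library ran PLAU, SERPINB2, PLAT, PLAUR and SERPINE2 from high to low. In Nc the PLAU and SERPINB2 libraries did not overlap, though only 43.99 and 41.92 FPKM separated the lowest and highest of them. In B1 and B3 the order began with PLAU, PLAT and SERPINB2, and in B2 PLAT was ahead of PLAU. PLAU and PLAT in B, at 49.9 ± 2.89 and 49.0 ± 0.745 FPKM, did not differ beyond their spread.

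FPKM here divide by an annotated length over all exons of a gene, which runs from 2748 bases for SERPINB2 to 8891 bases for SERPINE2. When counts were divided by the length of the principal coding transcript in GENCODE 29, a choice made after seeing the data, PLAT in B was 120 ± 1.82 and PLAU 63.5 ± 3.67 on the scale of FPKM (SD, n = 3). On that scale PLAUR was 16.9 ± 2.06, 25.6 ± 1.65 and 17.4 ± 1.67 in Nc, A and B, and SERPINE2 9.27 ± 1.22, 13.6 ± 1.47 and 14.0 ± 2.42. The order between genes therefore depends on the length used, while a ratio between groups for 1 gene does not.

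Ratios of FPKM within a library compare the RNA of the 2 activators and of other pairs, not their proteins. The value of each ratio depends on the gene lengths used, while its comparison between groups does not. PLAT to PLAU was 0.415, 0.372 and 0.458 in Nc1 to Nc3, 0.170, 0.154 and 0.164 in A1 to A3, and 0.941, 1.04 and 0.974 in B1 to B3. The 3 groups did not overlap, and the means were 0.415 ± 0.0429, 0.163 ± 0.0081 and 0.984 ± 0.0482 (SD, n = 3). PLAU to its receptor PLAUR was 7.89 ± 0.759, 8.72 ± 0.375 and 8.29 ± 0.371, and the groups overlapped. PLAU to the inhibitor SERPINB2 was 1.19 ± 0.121 in Nc, 2.04 ± 0.185 in A and 1.99 ± 0.559 in B. Every treated library was above every control library in that ratio. PLAT to the inhibitor SERPINE2 was 8.39 ± 1.12, 3.78 ± 0.342 and 14.4 ± 2.52 in Nc, A and B, again without overlap.

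**Figure D3:**
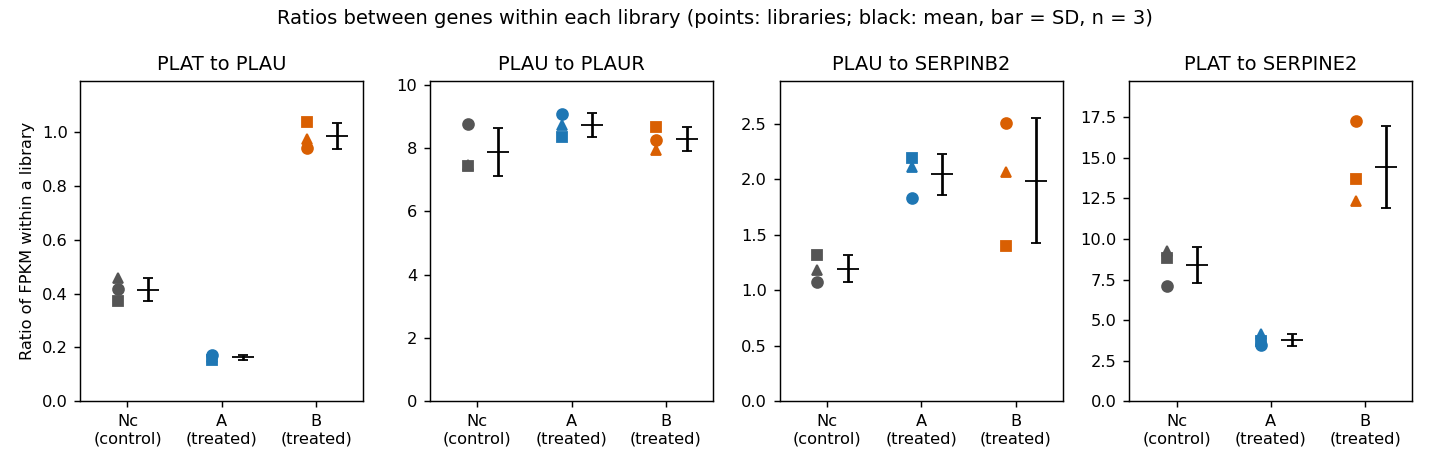
Ratios of FPKM (y axis, linear from 0) between pairs of the 5 genes within each library, by group; points are libraries and black marks the mean with its SD (n = 3). PLAT to PLAU runs from 0.163 in A through 0.415 in Nc to 0.984 in B, while PLAU to PLAUR stays between 7.42 and 9.09 in all 9 libraries. These values depend on the gene lengths used.

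Among 10516 tested genes with a mean of at least 1 FPKM, those whose profile over the 9 libraries was most like each of the 5 were found by the root mean square difference of centred log2(FPKM + 0.1). RHOB (0.067) and LAMB3 (0.072) were among the nearest to PLAU, and PLAU and PLAUR were 0.098 apart. RHBDF2 (0.066), WDR81 (0.075) and TMBIM1 (0.080) were nearest to PLAUR. Nearest to PLAT were CHAC1, a glutathione-degrading enzyme, at 0.126, STRA6, a retinol transporter, at 0.136 and PSAT1, an enzyme of serine synthesis, at 0.202. PLAT itself varied more about its mean (root mean square 0.819) than PLAU (0.334) or PLAUR (0.294), so its distances are not on a common footing with theirs. CHAC1 was at 3.42 ± 0.271, 2.19 ± 0.137 and 9.09 ± 1.24 FPKM in Nc, A and B. ERRFI1 (0.070), AC018629.1 (0.097) and FAM83A-AS1 (0.116) were nearest to SERPINE2, and KNSTRN (0.101), HSPA8 (0.108) and POLR1B (0.108) to SERPINB2. These distances describe 9 libraries that share groups and scaling.

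Stretches before annotated starts are shown for the 2 genes that rose together in A, PLAU and PLAUR, and for SERPINB2. They hold the letters of Sp1 or AP-1 sites. SERPINE2 also holds Sp1 letters and is not shown. RefSeq's table for GRCh38.p14 matched 4 of the 5 genes at 6 starts, and no entry for PLAT was used. All 250 bases before both PLAU starts and the PLAUR start lie in annotated exons, of PLAU and C10orf55 and of PLAUR, so for these genes the windows are transcribed sequence in other annotated transcripts. Both strands of the 250 bases before each start were searched for the letters TGANTCA (AP-1, the dimer of FOS and JUN proteins), GGGCGG (Sp1), GGAAGT (ETS) and the NF-kappaB consensus. Capitals mark the matches, and each stretch is on the gene's own strand:
PLAU, chr10:73911072-73911101: gagagggagGGGCGGcgccgGGGCGGgccc
PLAUR, chr19:43670338-43670367: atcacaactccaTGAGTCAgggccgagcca
SERPINB2, chr18:63887585-63887699: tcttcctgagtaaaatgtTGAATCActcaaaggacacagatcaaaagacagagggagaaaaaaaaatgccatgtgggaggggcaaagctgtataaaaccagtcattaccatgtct

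The AP-1 letters begin 186 bases before the start in PLAUR and 102 bases before it in SERPINB2, and 6.57% of 35116 promoters of this length hold them. The Sp1 letters were found in PLAU and SERPINE2, and in 42.6% of all promoters. PLAUR also held the ETS letters, found in 19.5% of promoters, and none of the 4 genes held the NF-kappaB letters, found in 1.73%. In the nearest 100 bases, 0 of the 4 genes held AP-1 letters and 2 held Sp1 letters, where 2.75% and 31.3% of all promoters do. The SERPINB2 match, which begins at base 102, is cut by the edge of that shorter window. A match of letters is a description of the sequence and shows no binding.

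Of 72 other genes in 8 lists around the system, 55 passed the filter. For A against Nc, 11 were called higher and 2 lower, for B against Nc 13 and 5, and for B against A 8 and 14. Over all tested genes the shares were 1.76% and 0.953%, 6.12% and 7.24%, and 8.79% and 9.25%, and the counts of each list below stand against the same shares. Median log2 fold changes of the tested list genes were 0.22, 0.04 and -0.15, where those of all tested genes were 0.01, 0.00 and -0.02. The lists were also chosen with earlier results of these data known. They are not complete, and further inhibitors of the system were not analysed here.

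Of 13 transcription factors known to act on PLAU, PLAUR and SERPINB2, all were tested. For A against Nc, 5 were called higher and 0 lower. EGR1, an immediate-early zinc finger factor, went from 7.47 to 57.7 FPKM, a log2 fold change of 2.96 (SE 0.13, adjusted p = 2.16e-09). The AP-1 subunits FOS (1.85), FOSL1 (1.31) and JUN (0.85) rose too. For B against Nc, 5 were called higher and 2 lower: ETS2 (0.66) and the AP-1 subunit JUND (0.67) rose, FOSL1 fell by 0.64 and ETS1 by 0.53. EGR1 in B, at 6.16 FPKM, differed from Nc by -0.27 (adjusted p = 0.183). FOSL1 was thus at 72.2, 178 and 46.1 FPKM in Nc, A and B.

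Among 6 tested matrix proteins that plasmin can cut, 2 were called higher in A and 2 lower in B against Nc. LAMB3, a laminin chain of the basement membrane, rose in A by 0.76 (SE 0.12, adjusted p = 0.0024). In B, LAMA3, another laminin chain, fell by 0.50 (SE 0.13, adjusted p = 0.0229). For B against A, 4 of the 6 were lower in B, among them LAMA3 by 0.99, LAMB3 by 0.57 and THBS1, a matrix glycoprotein, by 0.39. The fibrinogen chains FGA and FGB had 0 counts in all libraries.

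Of 9 tested partners and clearance receptors of PLAUR, 2 were called higher and 0 lower in each contrast with the control. In A these were the integrin subunits ITGA3, by 0.64, and ITGA5, by 0.51. In B they were LRP1, which takes up complexes of activator and inhibitor, by 0.66 (SE 0.11, adjusted p = 0.00251), and VLDLR, a related receptor with a mean below 1 FPKM in each group. ITGB1, the beta subunit that pairs with both integrins, differed by -0.24 in A and -0.52 in B (adjusted p = 0.404 and 0.0524). Of the LY6/uPAR relatives, which share PLAUR's domain fold, 2 of 8 were higher in A and 1 lower: LY6K rose by 0.97, LYPD3 by 0.73, and LYPD1 fell by 1.06. In B, LYPD3 (0.48) and LYPD5 (0.44) rose, though neither was called without a filter on low counts.

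Plasminogen's own transcript, PLG, had 0 counts in every library. Of 4 tested plasminogen receptors, edgeR called 0 in A or B against Nc. At an unadjusted p under 0.05 it found 1 in A and 0 in B, and DESeq2 called 1 and 0. S100A10, which with ANXA2 holds plasminogen at the cell surface, was at 350, 454 and 343 FPKM in Nc, A and B. It was lower in B than in A by 0.41 (SE 0.12, adjusted p = 0.0274). Of the 7 tested clade B serpins, relatives of SERPINB2, 0 were called higher and 1 lower in A, SERPINB13, by 0.78 on the log2 scale. In B, SERPINB1 (0.67) and SERPINB6 (0.51) rose and SERPINB5, known as maspin, fell by 0.56. For the 2 tested other inhibitors, edgeR and DESeq2 called 0 in all contrasts, and 0 had an unadjusted p under 0.05 by edgeR. A2M, a broad protease inhibitor that did not pass the filter, had 2, 26 and 1 counts in all libraries of Nc, A and B together. SERPINF2, the plasmin inhibitor alpha-2-antiplasmin, was at 3.04, 3.39 and 4.10 FPKM. Of 6 tested serine proteases and substrates near the cascade, 2 were called higher in B: PRSS8 (prostasin), by 0.49, and MST1, which lay below 1 FPKM and has near-identical copies that could share its reads. F12, the contact factor of coagulation, was lower in B than in A by 0.79. HGF, a growth factor activated by such proteases, had 3 counts in all B libraries together and 0 in the others.

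**Figure D4:**
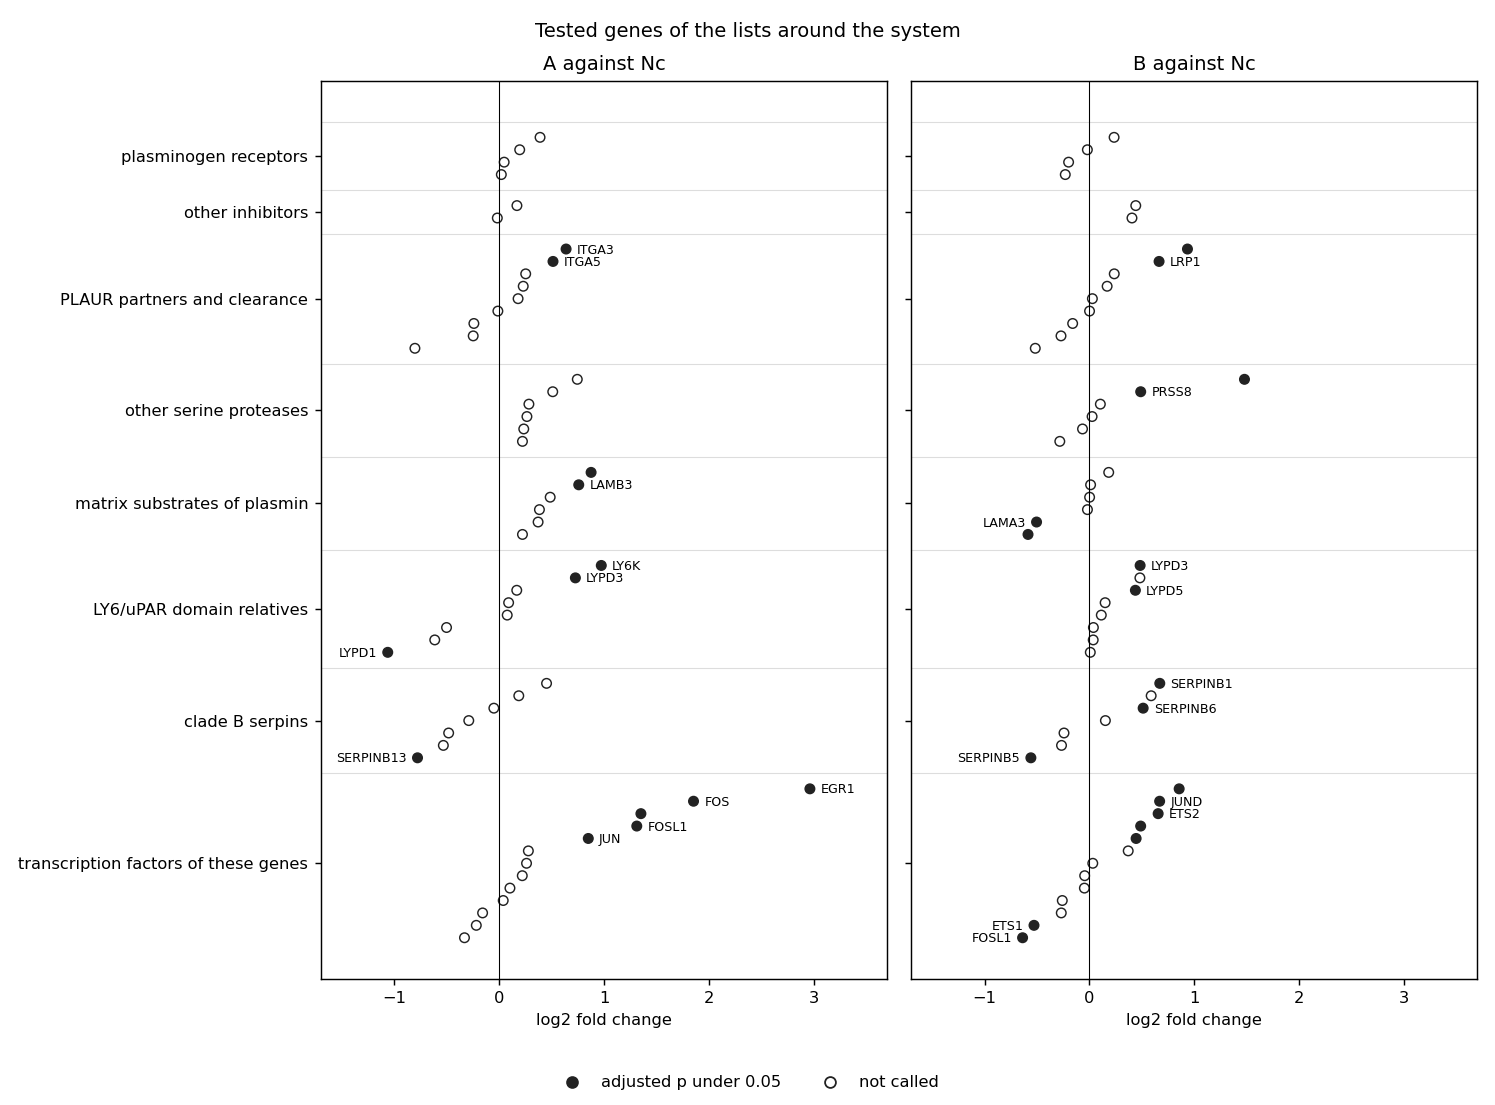
Log2 fold change (x axis) against the control of the 55 tested genes of the 8 lists (rows; 1 point per gene, ordered by value within its list), for A and for B, which share the control; filled points were called and labelled genes are named in the text. In A the called transcription factors all lie above 0, up to EGR1 at 2.96, and in B they lie on both sides, from FOSL1 at -0.64.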

How the data were processed

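Total RNA from 9 HaCaT samples was read as paired ends of 150 bases, according to the labels. FastQC, HISAT2, StringTie and the build GRCh38 are listed in the submitters' processing notes. For their versions, the gene annotation, strand handling and multi-mapping reads, the settings were not given in the sources used here. Counts are raw whole numbers per gene, as deposited by the authors. The FPKM, made by the authors, equal these counts divided by the deposited gene length and by a constant of 0.936 to 1.07 times the library's total, a scaling whose method is not stated.

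Counts were tested with edgeR 4.0.16 (TMM scaling, quasi-likelihood test, filterByExpr) in R 4.3.3, in 1 fit of all 9 libraries with 3 contrasts, and p-values were Benjamini-Hochberg adjusted over 13845 genes at 0.05. Standard errors are the log2 fold change divided by the root of its F statistic, an approximation. The method was also run on simulated data with independent counts. Those data held no paired or outlying libraries, so the run does not cover such features of the real libraries. Alternatives used DESeq2 1.42.0, limma 3.58.1 on log2(FPKM + 0.1) or log2(FPKM + 1), other scalings and filters, the 2 compared groups alone, a replicate block, and each library left out. Figures and summaries used Python 3.11.15, pandas 2.3.3, NumPy 2.4.6, SciPy 1.17.1 and matplotlib 3.10.9.

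The numbers in the column names were checked for pairing: deviations from the group means correlated between same-numbered Nc and A libraries (r = 0.47, 0.26 and 0.23), but not between Nc and B (-0.30, -0.33 and -0.26) or A and B (-0.24, -0.21 and -0.20). Under other numbers B correlated too: Nc1, Nc2 and Nc3 with B2, B3 and B1 (r = 0.31, 0.23 and 0.25). A1, A2 and A3 did so with the same B libraries (0.31, 0.25 and 0.28). These deviations come from centring only 3 libraries per group, so they do not settle which libraries are paired. The main fit used no pairing. The 5 genes and the lists were chosen with earlier results of these data known. Named besides the 5 were, per list and contrast, up to 4 called genes with the largest change and a mean of at least 1 FPKM, genes needed to state what was at or near 0, and the 3 genes most like each of the 5. Some genes that this rule admits are not reported here. ANXA2, A2M, ITGB1, SERPINF2, VLDLR and MST1 and the markers of cell types fall outside this rule and were named after their values were seen.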

Additional observations from a re-analysis of the deposited data

Results flagged for a closer look

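For 4 of the 5 genes the level differed between the treated groups A and B. This was tested directly as B minus A with edgeR's quasi-likelihood test and Benjamini-Hochberg adjustment. Of all tested genes, 18% were called in that contrast, and the 5 genes were chosen with earlier results of these data known. The log2 difference was 1.96 for PLAT (adjusted p = 4.08e-08), -0.64 for PLAU (adjusted p = 0.0014), -0.56 for PLAUR (adjusted p = 0.0080) and -0.53 for SERPINB2 (adjusted p = 0.0258). Groups of 3 were not screened for single outlying samples.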

How the results depend on the processing

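With 1 of the 9 libraries left out, the number of genes called ran from 101 to 910 for A against Nc (376 with all), from 489 to 2088 for B against Nc (1850) and from 1160 to 3197 for B against A (2498). The lowest counts came without A2, B3 and A3. For A against Nc, 794 genes were called by DESeq2, 992 without a filter on low counts, where 33.2% of calls were higher instead of 64.9%, and 226 and 223 by limma on log2(FPKM + 0.1) and log2(FPKM + 1). The replicate block gave 244, and 4601 with the A and Nc libraries alone; besides SERPINE2 in A against Nc (0.54, now called) the block changed no call of the 5 genes. For B against Nc and B against A the block called 1527 and 1968 genes. In the fit of all 9 libraries the block joins B to same-numbered libraries whose deviations correlated negatively with those of B. The calls of that fit are therefore no check on pairing.

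Leaving out 1 library moved the log2 fold changes of A against Nc from 0.52 to 0.69 for PLAUR, -0.62 to -0.53 for PLAT, 0.49 to 0.67 for SERPINE2 and -0.074 to 0.049 for SERPINB2. The uncalled SERPINB2 difference changed sign without Nc1 (0.049), A2 (0.019) and A3 (0.031). For B against Nc the ranges were -0.040 to 0.16 for PLAUR, with the sign changed without Nc1, 0.50 to 0.75 for SERPINE2 and -0.75 to -0.38 for SERPINB2. For B against A they were -0.61 to -0.46 for PLAUR, -0.065 to 0.21 for SERPINE2, below 0 without A3 (-0.034) and B3 (-0.065), and -0.72 to -0.35 for SERPINB2. PLAU in each contrast and PLAT in both contrasts with B kept their calls and signs in these fits. SERPINE2 in A against Nc was called by DESeq2 (0.55) and without a filter (0.51). SERPINB2 was not called with library totals (-0.50 against Nc, -0.45 against A) or, against A, with at least 10 counts in every library (-0.47).

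Without the 5 libraries that held at least 100 globin counts, 30, 57 and 460 genes were called, with fewer samples in the fit. Log2 fold changes there were 0.80, 0.58 and -0.67 for PLAU, PLAUR and PLAT in A against Nc, 1.29, 0.57 and -0.43 for PLAT, SERPINE2 and SERPINB2 in B against Nc, and -0.62, -0.57 and -0.41 for PLAU, PLAUR and SERPINB2 in B against A, none called. PLAT in B against A remained called (1.96). Of 72 recomputed counts of called list genes, 59 stayed within 1.5 times and 13 did not. SERPINE2, with 284 to 682 counts per library, and PLAUR, with 408 to 644, rest on fewer counts than the other 3 genes.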
